A study of Homo sapiens with 30 samples.

Results

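A 7-day exposure of A549 cells to MS023 was compared with untreated cells by precision run-on sequencing, using 4 of the 30 libraries of the series. All 58780 genes of the count table were considered, and 22919 of them passed the filter on low counts and were tested. A549 is an established human lung adenocarcinoma line. The exposed group held 2 libraries from cells kept in 1 µM MS023 for 7 days, and the untreated group held 2 libraries from cells given no inhibitor, labelled as 15 min samples. All groups carried the vehicle, 0.01% DMSO, and each sample was made from about the same number of cells. Further groups served for comparison: 1 µM MS023 for 2 and 4 days, 1 µM GSK591 for 7 days, and 100 nM dexamethasone (Dex) for 15 min or 3 h with or without 7 days of MS023 beforehand, each of 2 libraries. The labels do not say that the libraries of a group came from separate cultures. The p-values rest on the spread between libraries within groups, pooled over all 15 groups of the series, and that spread may be technical.

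Protein arginine methyltransferases (PRMTs) place methyl groups on arginines of histones, of RNA-binding proteins with arginine-glycine-rich stretches and of many other proteins. MS023 is a chemical inhibitor of the Type I enzymes, PRMT1, PRMT3, CARM1 (PRMT4), PRMT6 and PRMT8, which form asymmetric dimethylarginine. GSK591 inhibits PRMT5, the main Type II enzyme, which forms symmetric dimethylarginine. Precision run-on sequencing labels the nascent RNA of engaged RNA polymerases with biotin-carrying nucleotides, so a gene's count follows ongoing transcription more than the amount of stored mRNA. In bulk samples, fewer cells of a type and less RNA per cell cannot be told apart, and a lower count of a cell-cycle gene can mean either.

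Total counts ran from 8441211 to 13069598 over the series, and mitochondrial genes took between 58.7% and 78.7% of them. The untreated libraries held 13069598 and 12438774 counts, of which 76.0% and 73.4% were mitochondrial, and the MS023 libraries held 9247921 and 9347165, of which 58.7% and 59.6% were mitochondrial. Counts of nuclear genes were 2491151 and 2722684 in untreated cells and 3401722 and 3300972 after MS023. Because these shares differ between the groups, fold changes are given relative to the typical gene, by trimmed mean (TMM) scaling, which put the median log2 fold change of all tested genes at 0.01. Scaling to all counts instead moved that median to 1.02, and scaling to nuclear counts moved it to 0.21, so every direction below is a direction relative to the median gene. Of the 5 epithelial markers (KRT8, KRT18, KRT19, EPCAM, CDH1), the summed level was 290 to 309 CPM (counts per 1000000 counts of the TMM-scaled library) in untreated libraries and 302 to 314 CPM after MS023. Summed levels of 3 haematopoietic markers (PTPRC, CD3E, CD14) were 1.55 to 3.12 CPM and 4.12 to 4.31 CPM, of 3 fibroblast markers (COL1A2, COL3A1, PDGFRB) 1.11 to 2.01 and 1.77 to 2.02 CPM, and of 3 endothelial markers (PECAM1, CDH5, VWF) 0.704 to 0.999 and 1.41 to 2.24 CPM. CDKN2A, which A549 has lost, lay between 0 and 0.144 CPM. No marker was at 0 in all 4 libraries.

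Transcription of many genes differed after 7 days of MS023. With edgeR's quasi-likelihood test and a Benjamini-Hochberg adjusted p under 0.05, 3128 genes differed, which is 13.6% of those tested. Of these, 1634 (7.13%) were higher and 1494 (6.52%) were lower, and 815 rose and 450 fell by more than 1 on the log2 scale. In 13331 genes, or 58.2%, the libraries of the groups did not overlap. Leaving out any 1 of the 4 libraries left 785 to 1002 genes higher and 781 to 837 lower, and DESeq2 found 922 and 891. Among 1698 long intergenic RNAs, 160 were higher and 45 lower with a median of 0.25, against 1160 and 1177 of 14978 protein-coding genes with a median of -0.02. Long non-coding RNAs as a class nevertheless took a smaller share of nuclear counts, 23.2% and 22.5% in the untreated libraries and 16.6% and 15.8% after MS023. The filter on low counts ran before TMM scaling, and a gene could pass it through the libraries of 1 group alone. On the TMM scale it was laxer for the MS023 libraries than for the untreated ones. Calls and medians of genes of few counts may thus lean toward rises, and this was not tested for long intergenic RNAs. Of 1591 processed pseudogenes 37 were higher and 98 lower, with a median of -0.24. Their lower calls were about as frequent as the 6.52% of all genes, and their higher calls rarer than the 7.13%. These copies share reads with their parent genes, so a pseudogene's count is uncertain.

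**Figure D1:**
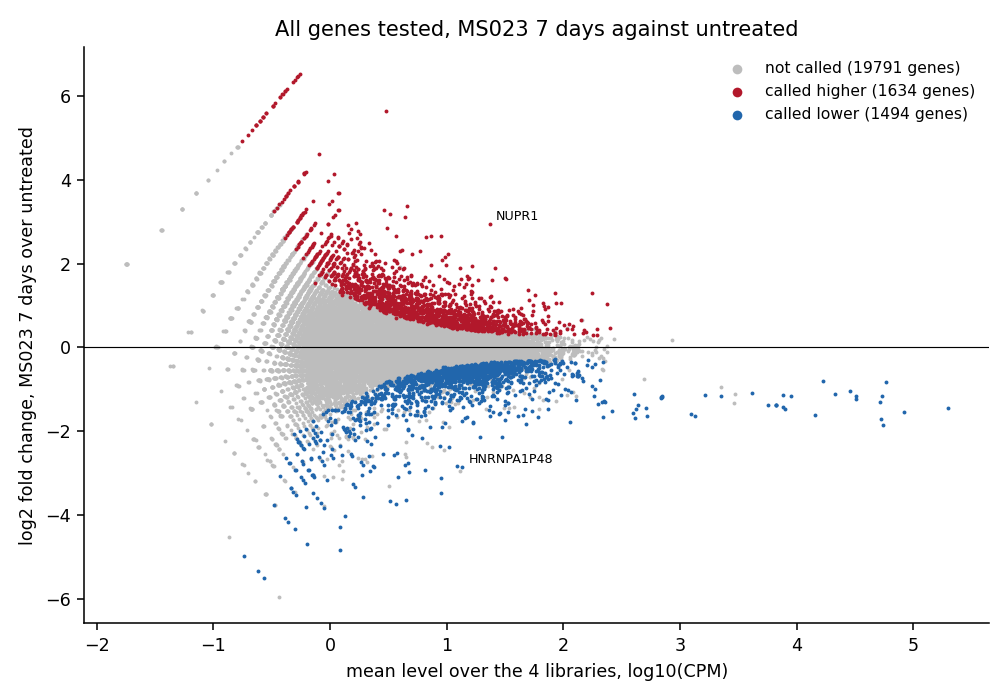
Log2 fold change of MS023 7 days over untreated (y axis) against the mean level over the 4 libraries in log10 CPM (x axis), 1 point per tested gene. Red points are the 1634 genes called higher and blue points the 1494 called lower. Labels mark NUPR1, at 2.95, and HNRNPA1P48, at -2.85, the largest rise and fall among called coding and long non-coding genes averaging 5 CPM or more; red diagonal rows at the left are genes of few counts.

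The targeted enzymes' own genes were transcribed before and after exposure. PRMT1, the enzyme responsible for most asymmetric dimethylarginine, stood at 56.0 and 55.7 CPM in the untreated libraries and at 45.6 and 43.3 CPM after MS023, a log2 fold change of -0.33 ± 0.11 (SE, adjusted p = 0.0308). PRMT3, a cytoplasmic enzyme that acts on a ribosomal protein, stood at 20.5 and 22.2 CPM and then at 15.2 and 16.5 CPM, a log2 fold change of -0.43 ± 0.14 (adjusted p = 0.0283). In neither gene did the groups overlap, which was also so in 58.2% of all genes. Both calls were lost when any 1 of the 4 libraries was left out, and with DESeq2. Leaving out 1 library put the log2 fold change between -0.37 and -0.29 for PRMT1 and between -0.49 and -0.37 for PRMT3. CARM1, a coactivator of nuclear receptors, was at 5.88 and 6.23 CPM and at 5.23 and 8.01 CPM (log2 0.13 ± 0.23, adjusted p = 0.775). PRMT2 was at 29.6 and 33.6 CPM against 30.1 and 22.9 CPM (adjusted p = 0.214). PRMT6 had 2 and 1 counts in untreated cells and 3 and 1 after MS023, and PRMT8 had 0 and 0 against 1 and 3, so neither was tested. PRMT5 was at 7.88 and 8.75 CPM against 7.77 and 7.94 CPM (log2 -0.08 ± 0.19, adjusted p = 0.819). Of the 19 tested genes of arginine methylation as a whole, JMJD6, a JmjC-domain oxygenase, was called higher and RIOK1, MAT2B, PRMT3 and PRMT1 lower. Their median was -0.08, and the shares over all genes were 7.13% higher and 6.52% lower. Without 1 library at most 2 of the 4 lower calls remained. JMJD6 had 11.3 and 13.7 CPM and then 16.4 and 17.9 CPM (log2 0.45 ± 0.14, adjusted p = 0.0211), a call lost without MS023 replicate 2 or untreated replicate 1 (adjusted p up to 0.27). NR3C1, which encodes the glucocorticoid receptor that Dex binds, rose from 47.7 and 49.5 CPM to 69.7 and 65.3 CPM, a log2 fold change of 0.47 ± 0.11 (adjusted p = 0.00158).

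Among called coding and long non-coding genes averaging 5 CPM or more, the largest rise belonged to NUPR1 (chr16:28532708-28539174, minus strand, hg38), a small stress-induced chromatin protein. It had 4.88 and 5.73 CPM in untreated cells and 38.5 and 44.1 CPM after 7 days of MS023, a log2 fold change of 2.95 ± 0.18 (adjusted p = 1.5e-16). FGA, the fibrinogen alpha chain, went from 2.44 and 2.41 CPM to 14.1 and 17.0 CPM (2.67 ± 0.20, adjusted p = 4.49e-14). CDKN1C, which encodes the cyclin-dependent kinase inhibitor p57, went from 3.11 and 0.905 CPM to 13.4 and 11.7 CPM (2.67 ± 0.34, adjusted p = 7.59e-06). Leaving out 1 library put its log2 fold change between 2.01 and 3.77. AXIN2 (chr17:65528563-65561647, minus strand), a feedback inhibitor induced by Wnt signalling, went from 1.89 and 1.81 CPM to 11.7 and 11.5 CPM (2.64 ± 0.27, adjusted p = 3.25e-10). The rule that chose these genes required every MS023 library to lie above both untreated ones. The other 6 of the 10 largest rises were ZNF467 at 2.30, TPD52L1 at 2.24, the transcription factor gene EBF4 at 2.16, the growth arrest gene GADD45G at 2.10, the secreted morphogen gene SHH at 1.98 and the nephrin gene NPHS1 at 1.97 on the log2 scale. SHH rose from 3.55 and 2.41 CPM to 12.2 and 11.3 CPM (SE 0.23, adjusted p = 5.79e-09). GADD45G rose from 3.66 and 3.22 CPM to 14.5 and 14.9 CPM (SE 0.22, adjusted p = 1.04e-09). All 10 calls held with each library left out in turn.

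Among the largest falls, TGM2 (chr20:38127387-38166578, minus strand), the calcium-dependent tissue transglutaminase that crosslinks proteins, had the smallest standard error of the 10. It was measured at 32.7 and 30.2 CPM in untreated cells and 7.21 and 7.15 CPM after MS023, a log2 fold change of -2.13 ± 0.13 (adjusted p = 1.14e-16). ANTXR1, a cell-surface receptor for anthrax toxin and collagen, went from 48.0 and 49.8 CPM to 11.3 and 10.9 CPM (-2.14 ± 0.25, adjusted p = 1.91e-05). SFMBT2, a Polycomb group gene, went from 12.3 and 10.4 CPM to 3.18 and 2.82 CPM (-1.91 ± 0.25, adjusted p = 1.26e-07). FLJ16779, a gene of unsettled function, went from 16.1 and 14.2 CPM to 3.89 and 4.69 CPM (-1.82 ± 0.20, adjusted p = 1.56e-09). CLSPN and INCENP, which also belong to the 10, are described with the cell-cycle genes. HNRNPA1P48 (23.5 and 24.4 CPM, then 3.82 and 2.82 CPM; -2.85 ± 0.55, adjusted p = 0.00226) and HNRNPA1L2 (9.10 and 7.14 CPM, then 1.55 and 2.24 CPM; -2.09 ± 0.51, adjusted p = 0.0104) are near-identical copies of HNRNPA1, and their counts are uncertain. HNRNPA1L2 lost its call without MS023 replicate 1 (adjusted p = 0.102) or untreated replicate 1. MUC5AC, a gel-forming airway mucin, went from 17.2 and 12.1 CPM to 2.26 and 3.39 CPM (-2.36 ± 0.59, adjusted p = 0.013), and EIF5B, a translation initiation factor, from 91.0 and 59.5 CPM to 20.2 and 22.2 CPM (-1.83 ± 0.42, adjusted p = 0.00766). Both lost the call without either MS023 library or without untreated replicate 1, with adjusted p up to 0.111 for MUC5AC and 0.0845 for EIF5B. Of pseudogenes, HNRNPA3P5 fell most, from 18.1 and 14.8 CPM to 0.989 and 1.95 CPM (-3.47 ± 0.53, adjusted p = 0.00031). It was followed by PTMAP5 at -3.11 (adjusted p = 0.00446; 0.052 without MS023 replicate 1) and PTMAP2 at -2.94 (adjusted p = 0.0104; up to 0.0967 with 1 library left out). The pseudogenes that rose most were AC009237.3 at 1.54, AL121949.1 at 1.37 and MST1L at 1.35.

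**Figure D2:**
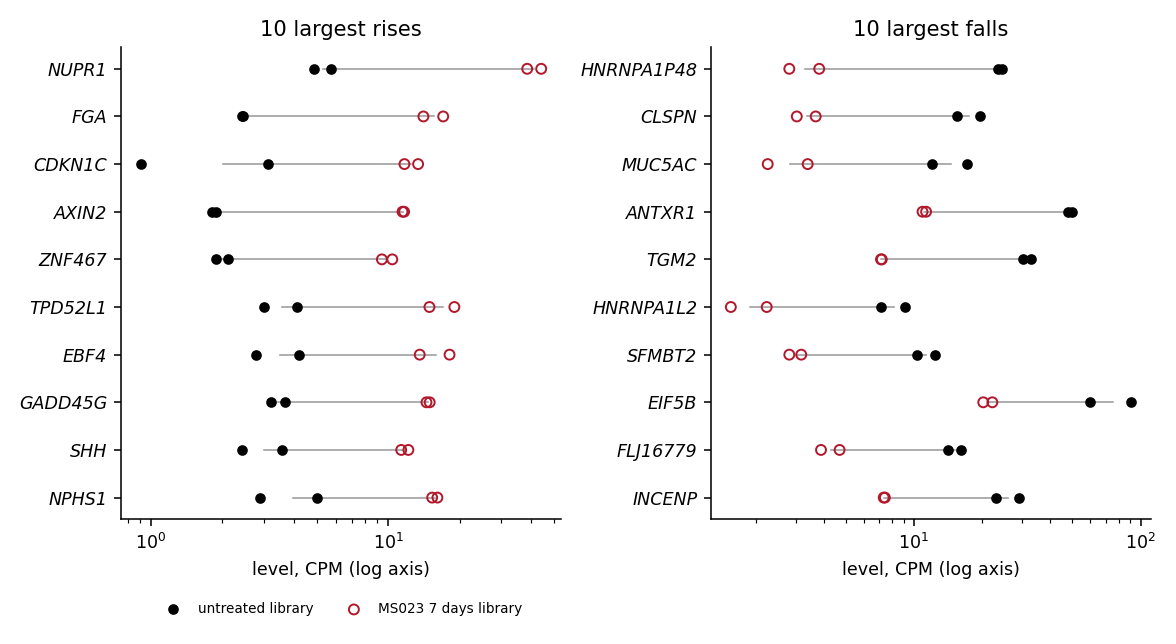
Level in CPM on a log axis of the 10 largest rises (left) and the 10 largest falls (right); filled black points are the 2 untreated libraries, open red circles the 2 MS023 libraries, and grey lines join the group means. In all 20 genes both MS023 libraries lie beyond both untreated ones, as the rule that chose them required.

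Some named genes share exon sequence with other genes in the GENCODE annotation. CLSPN, TPD52L1, TGM2, EIF5B, FLJ16779, CDKN1A, CTGF, MUC5B and ALDH3A1 are each overlapped by 1 gene on the opposite strand, and NPHS1, CDK2, TPM1 and MCM2 by 2. AXIN2, HNRNPA1L2, AJUBA and JMJD6 are overlapped by 1 gene on the same strand, and PRMT1 and MDM2 by genes on both. The sources used here do not say whether counting used strand, so reads of such partners may not be told apart.

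Genes of DNA replication were lower after 7 days. Replication starts when origins are licensed by the ORC, CDC6 and MCM proteins, many of whose genes are driven by E2F transcription factors, and mitotic genes are driven later by MYBL2 and FOXM1 through NF-Y and cell cycle homology (CHR) elements. Of 51 replication and G1/S genes tested, 25 fell, none rose (none at an unadjusted p under 0.05 or with DESeq2 either), and the median log2 fold change was -0.66, against 6.52% lower and a median of 0.01 over all genes. Without 1 library the count lay between 17 and 21, DESeq2 gave 23, and the median was 0.35 under scaling to all counts, where the median gene stood at 1.02. By role, 11 of 16 licensing and helicase genes fell, as did 9 of 21 polymerase and fork genes, 2 of 5 nucleotide supply genes (RRM2 and TYMS) and 3 of 9 G1/S regulators (E2F1, CDC25A and UHRF1). MCM5, a subunit of the replicative helicase, went from 26.1 and 25.4 CPM to 12.4 and 11.9 CPM (-1.08 ± 0.14, adjusted p = 1.26e-07). MCM4 went from 44.4 and 45.1 CPM to 21.7 and 25.1 CPM (-0.94 ± 0.12, adjusted p = 1.19e-07). MCM2, chosen after its values were seen because its promoter is printed here, went from 15.0 and 15.1 CPM to 6.78 and 6.93 CPM (-1.13). CLSPN (chr1:35720218-35769967, minus strand), which encodes the checkpoint adaptor claspin at replication forks, went from 19.5 and 15.5 CPM to 3.04 and 3.68 CPM (-2.38 ± 0.41, adjusted p = 0.000849).

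Mitotic genes were lower too. Of 47 mitosis and G2/M genes, 17 fell, against 6.52% of all genes, and none rose (1 was higher at an unadjusted p under 0.05, none with DESeq2), with a median of -0.72 (0.29 under scaling to all counts), and 9 to 12 fell when 1 library was left out. DESeq2 called 12 lower and a fit of only the 2 groups called 30. By role, 15 of 22 kinase, cyclin and regulator genes fell, 1 of 14 kinetochore and kinesin genes (KIF14) and 1 of 11 spindle and cytokinesis genes (TPX2). Their medians were -0.77, -0.77 and -0.60, and the difference between roles was not tested. INCENP, the scaffold of the chromosomal passenger complex, went from 29.1 and 23.0 CPM to 7.35 and 7.44 CPM (-1.81 ± 0.21, adjusted p = 6.71e-07). BIRC5, or survivin, of the same complex, went from 27.7 and 28.1 CPM to 11.0 and 11.8 CPM (-1.29 ± 0.14, adjusted p = 1.4e-09), and AURKB and CDCA8, its other subunits, were also called lower. CCNB2, a mitotic cyclin, went from 26.9 and 27.9 CPM to 13.1 CPM in both MS023 libraries (-1.07 ± 0.15, adjusted p = 4.1e-07). Of 18 homologous recombination and Fanconi genes, 6 fell (BLM, BRCA2, FANCD2, EXO1, FANCA, BRIP1) and none rose, also at an unadjusted p under 0.05, with a median of -0.58 (0.43 under scaling to all counts), but 1 to 3 fell without 1 library. FANCA went from 32.3 and 29.5 CPM to 20.6 and 18.3 CPM (-0.66 ± 0.14, adjusted p = 0.000605). BLM, a helicase gene, stood at -1.19 ± 0.31 (adjusted p = 0.00611) and lost its call without MS023 replicate 1 or untreated replicate 1 (up to 0.113).

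Promoters of 4 of these genes are shown because each combines a clear fall with the motifs known for its class. Sequences are the RefSeq windows of GRCh38.p14, 300 bases from 250 before to 50 after the annotated start, written 5′ to 3′ on the gene's strand. Capitals mark CCAAT (or ATTGG, its reverse complement) and the CHR motif TTTGAA in CCNB2 (chr15:59104896-59105195, plus) and INCENP (chr11:62123761-62124060, plus), and E2F motifs in CLSPN (chr1:35769929-35770228, minus) and MCM2 (chr3:127598161-127598460, plus).
CCNB2: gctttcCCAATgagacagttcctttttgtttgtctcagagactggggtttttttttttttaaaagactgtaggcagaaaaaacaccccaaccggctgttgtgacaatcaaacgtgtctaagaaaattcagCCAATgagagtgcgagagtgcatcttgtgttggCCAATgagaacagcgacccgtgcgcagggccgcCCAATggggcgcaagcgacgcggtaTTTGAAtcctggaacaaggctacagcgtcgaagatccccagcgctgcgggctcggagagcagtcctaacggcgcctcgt
INCENP: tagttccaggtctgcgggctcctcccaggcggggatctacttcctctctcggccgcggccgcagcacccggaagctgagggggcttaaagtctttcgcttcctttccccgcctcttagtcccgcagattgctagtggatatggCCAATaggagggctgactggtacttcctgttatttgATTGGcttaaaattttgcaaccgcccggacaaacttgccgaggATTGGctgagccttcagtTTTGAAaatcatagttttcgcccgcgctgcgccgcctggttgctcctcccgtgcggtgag
CLSPN: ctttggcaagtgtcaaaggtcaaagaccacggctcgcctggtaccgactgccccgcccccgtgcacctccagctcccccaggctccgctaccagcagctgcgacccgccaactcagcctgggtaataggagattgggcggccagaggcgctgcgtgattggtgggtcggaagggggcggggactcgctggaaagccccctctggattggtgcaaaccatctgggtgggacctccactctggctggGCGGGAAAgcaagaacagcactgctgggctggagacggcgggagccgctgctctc
MCM2: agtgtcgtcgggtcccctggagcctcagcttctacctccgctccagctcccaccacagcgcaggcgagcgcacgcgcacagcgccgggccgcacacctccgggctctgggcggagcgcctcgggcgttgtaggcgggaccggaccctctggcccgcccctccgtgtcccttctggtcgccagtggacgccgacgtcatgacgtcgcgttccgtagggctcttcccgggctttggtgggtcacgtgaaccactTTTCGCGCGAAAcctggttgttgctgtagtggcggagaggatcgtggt
CCNB2 holds 4 CCAAT and 1 CHR match, INCENP 3 and 1, CLSPN 1 E2F match and MCM2 2 that overlap on opposite strands. CLSPN also holds 3 CCAAT matches, left in lower case, and MCM2 none. Motifs searched on both strands were CCAAT, CHR as TTTGAA or TTCGAA, and E2F as TTTCCCGC, TTTGGCGC, TTTCGCGC or TTTGCCGC; the pairs of E2F words can overlap each other. For each gene the first window of the table was used. Of 40 mitosis genes with a window, of 47, 26 (65.0%) held both CCAAT and CHR, against 6.58% of all 27305 windows of this length. Of 43 replication genes with a window, of 51, 23 (53.5%) held an E2F match, against 3.33% of all windows, and 24 (55.8%) held CCAAT, against 35.7%. In the mitosis windows CCAAT was in 31 (77.5%). Conversely, 3 of the 40 mitosis windows held an E2F match and 2 of the 43 replication windows held CCAAT with CHR. Among all 962 genes called lower with a window, 6.86% held an E2F match and 6.96% held CCAAT with CHR. These shares were 2.45% and 4.31% of 1021 genes called higher, and 4.93% and 4.76% of 13287 tested genes with a window. The link between motifs and falls was not tested. All of these motif counts are matches of letters, not measured binding.

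Regulators of the G1 phase moved in both directions. Of 19 tested, 6 were called higher (CDKN1C, CDKN1A, CCNG2, CDKN2C, CCND3, CDKN1B) and CDK2 and E2F7 lower, with a median of -0.03; 1 to 4 were higher without 1 library. Over all genes 7.13% were higher and 6.52% lower. Of the 5 cyclin-dependent kinase inhibitors 4 were higher, with a median of 0.49. CDK2, the kinase that drives entry into replication, went from 6.21 and 4.02 CPM to 1.70 and 1.73 CPM (-1.56 ± 0.29, adjusted p = 8.81e-05). CDKN1A, which encodes p21, stood at 10.3 and 11.1 CPM and at 19.2 and 14.2 CPM (0.64 ± 0.15, adjusted p = 0.00251; 0.167 without MS023 replicate 1). E2F7, a repressive E2F, stood at -0.96 ± 0.21 (adjusted p = 0.00111; up to 0.0599 without MS023 replicate 1 or untreated replicate 2).

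Targets of p53, the DNA damage-responsive transcription factor, were on the higher side. Of 29, 11 were called higher, against 7.13% of all genes, and 1 lower, with a median of 0.26, and 6 to 11 were higher without 1 library. MDM2, whose product degrades p53, rose from 43.4 and 42.2 CPM to 91.1 and 88.1 CPM (1.07 ± 0.11, adjusted p = 6.16e-10). GDF15, a stress-induced secreted factor, rose from 45.4 and 52.4 CPM to 123 and 120.3 CPM (1.31 ± 0.12, adjusted p = 4.87e-12). SPATA18, FAS, TP53INP1, BTG2, PHLDA3, CDKN1A, BAX, FDXR and SESN2 were the other 9. TP53I3, a quinone oxidoreductase, was lower, at 94.0 and 97.2 CPM and 72.4 and 78.6 CPM (-0.34 ± 0.11, adjusted p = 0.0224), a call lost without MS023 replicate 1 or either untreated library (up to 0.188).

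Genes for a list of RNA-binding proteins were lower as a group. Many members are rich in arginine-glycine repeats, and such proteins are among the best known substrates of PRMT1. Other members, such as HNRNPC and HNRNPF, were listed as relatives, so the counts are not counts of substrates. Of 29, 19 fell, against 6.52% of all genes, and none rose, neither by edgeR at an unadjusted p under 0.05 nor with DESeq2. The median was -0.67 (0.36 under scaling to all counts). The count was 13 to 16 without 1 library and 17 with DESeq2. Among them, 10 of 17 hnRNP genes fell. TAF15, an RNA-binding protein also found in the general transcription factor TFIID, went from 196 and 166 CPM to 69.95 and 82.2 CPM (-1.25 ± 0.25, adjusted p = 0.00338). EWSR1, an RNA-binding protein fused to ETS factors in Ewing sarcoma, went from 38.1 and 34.2 CPM to 20.6 and 23.0 CPM (-0.73 ± 0.16, adjusted p = 0.00127). HNRNPA1, a splicing repressor, went from 94.0 and 91.8 CPM to 66.1 and 61.7 CPM (-0.54 ± 0.10, adjusted p = 5.2e-05), and reads of its many copies may be shared with it. NCL and FBL, nucleolar proteins of ribosomal RNA synthesis, also fell. NCL went from 366 and 299 CPM to 97.9 and 112 CPM (-1.66 ± 0.36, adjusted p = 0.00522; 0.0607 without MS023 replicate 1), and FBL from 19.0 and 31.0 CPM to 10.9 and 10.5 CPM (-1.23 ± 0.20, adjusted p = 6.17e-05). Of 52 core splicing factor genes 13 fell, against 6.52% of all genes, and none rose (1 at an unadjusted p under 0.05). The median was -0.29 (0.73 under scaling to all counts). Of the 13, 10 encode snRNP-specific proteins. Between 3 and 7 were lower without 1 library and 7 with DESeq2. SF3A2, of the U2 particle, went from 16.5 and 15.8 CPM to 9.04 and 7.29 CPM (-0.98 ± 0.17, adjusted p = 2.77e-05), and SNRNP70, of the U1 particle, from 65.8 and 59.5 CPM to 38.2 and 46.8 CPM (-0.56 ± 0.11, adjusted p = 0.000397).

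Ribosome genes showed smaller differences, to be read beside 7.13% higher and 6.52% lower over all genes. Of 30 ribosome biogenesis genes 8 were lower and 1, BYSL, was higher, with a median of -0.35 (3 to 4 lower without 1 library). Of 84 genes for cytosolic ribosomal proteins 17 were lower and 1 higher, with a median of -0.17, and 5 to 11 were lower without 1 library. That median turned to 0.03 under scaling to nuclear counts, where 3 genes were lower. RPL13A stood at 71.7 and 83.2 CPM and at 55.3 and 47.4 CPM (-0.59 ± 0.10, adjusted p = 4.69e-05), while RPS27L, a p53-inducible relative of RPS27, rose from 50.8 and 51.4 CPM to 80.3 and 81.4 CPM (0.66 ± 0.11, adjusted p = 3.34e-05). Ribosomal protein genes have many processed copies, which may share reads. Of 404 zinc finger ZNF genes, 54 were higher and 11 lower, against 7.13% and 6.52% of all genes, with a median of 0.16, and 25 to 34 were higher without 1 library. Members of few counts could have passed the low-count filter through the MS023 libraries alone, and the part of this in the median was not tested. ZNF467 went from 1.89 and 2.11 CPM to 9.40 and 10.4 CPM (2.30 ± 0.25, adjusted p = 1.13e-09), and ZNF571 from 1.66 and 1.31 CPM to 6.85 and 5.13 CPM (2.01 ± 0.29, adjusted p = 1.42e-06).

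**Figure D3:**
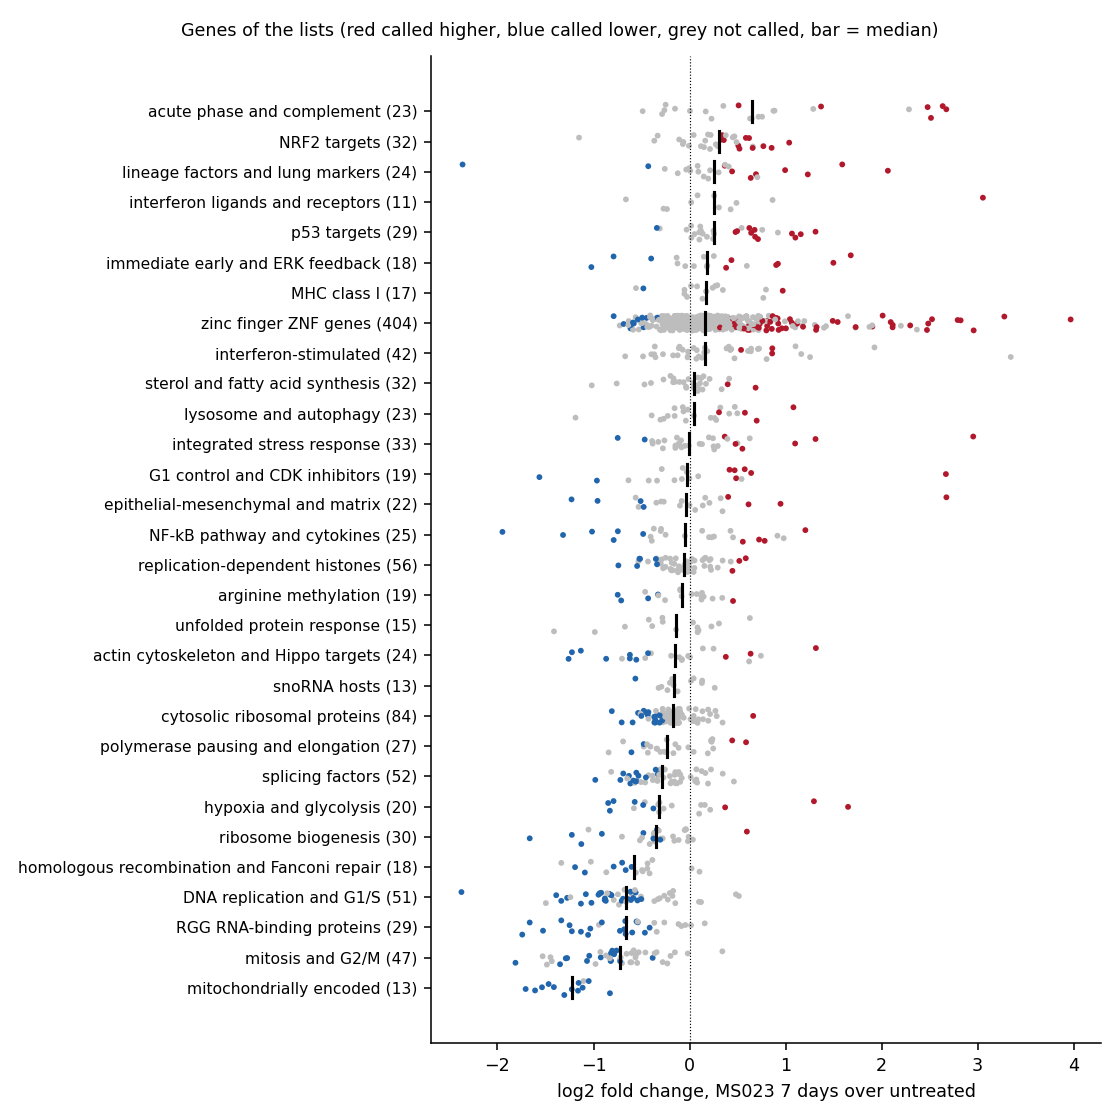
Log2 fold change of MS023 7 days over untreated (x axis) for every tested member of each gene list (rows, with the number tested), red where called higher, blue where called lower, grey otherwise; black bars are medians. Replication, mitosis, repair and RNA-binding lists have medians between -0.58 and -0.72 and p53, NRF2 and acute phase lists between 0.26 and 0.65; under scaling to all counts the first 4 turn positive (0.29 to 0.43) under a median gene at 1.02.

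The integrated stress response, in which phosphorylated eIF2α raises ATF4, did not move as one. Of 33 genes 6 were higher (NUPR1, GDF15, ASNS, TRIB3, SESN2, CEBPB) and 2 lower, against 7.13% and 6.52% of all genes, with a median of -0.01 that was 0.03 to 0.06 without 1 library. The lower ones lost their calls without any 1 of the 4 libraries: DDIT3, or CHOP, stood at 6.55 and 5.03 CPM and at 3.18 and 3.68 CPM (-0.75 ± 0.265, adjusted p = 0.0499), and SLC7A1, an arginine transporter, at -0.47 ± 0.16 (adjusted p = 0.0391). Of 18 amino acid and tRNA-charging genes 1 was higher, ASNS, and 1 lower. No gene of 15 in the unfolded protein response was called by edgeR or by DESeq2, and 1 was higher and 2 lower at an unadjusted p under 0.05 in edgeR; HSPA5, the endoplasmic reticulum chaperone BiP, was at 76.9 and 67.5 CPM and at 64.7 and 66.2 CPM (-0.14 ± 0.21, adjusted p = 0.72). NRF2, the regulator of antioxidant genes, is held active in A549 cells through a KEAP1 mutation. The NRF2 list holds its targets and also its own gene, NFE2L2, and KEAP1. Of these 32 genes 11 were higher, KEAP1 among them, with a median of 0.31. None was lower, also at an unadjusted p under 0.05 and with DESeq2. Between 3 and 7 were higher without 1 library. GPX2, a glutathione peroxidase, went from 9.99 and 13.7 CPM to 23.5 and 19.4 CPM (0.85 ± 0.15, adjusted p = 7.43e-05), and ALDH3A1, an aldehyde dehydrogenase, from 103 and 116 CPM to 163 and 182 CPM (0.66 ± 0.11, adjusted p = 2.26e-05). Of 23 lysosome and autophagy genes 4 were higher, against 7.13% of all genes, among them their regulator TFEB, from 6.88 and 7.14 CPM to 11.4 CPM in both MS023 libraries (0.70 ± 0.17, adjusted p = 0.00315).

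Interferon-stimulated genes were called higher on day 7 about as often as genes in general, although many had been higher earlier. Of 42 tested, 3 were higher (ISG20, PARP9, PARP12), against 7.13% of all genes, none was lower (1 at an unadjusted p under 0.05, none with DESeq2), and the median was 0.16. ISG20, an exonuclease, was at 19.1 and 18.6 CPM and at 34.8 and 33.6 CPM (0.86 ± 0.15, adjusted p = 8.86e-05), whereas PARP12 (0.54 ± 0.18, adjusted p = 0.0414) lost its call without MS023 replicate 2 or either untreated library. IFIT1, an antiviral RNA-binding protein, was at 1.33 and 1.41 CPM in untreated cells, 6.24 and 8.66 CPM on day 2, 13.6 and 17.4 CPM on day 4, and 1.41 and 1.59 CPM on day 7. OASL followed the same course, from 1.22 and 0.804 CPM to 10.7 and 9.39, 12.3 and 13.1, and then 0.707 and 0.722 CPM. In both genes every day 2 and day 4 library stood above every untreated and day 7 library. Of the 42 genes, 29 were higher than untreated on day 4, with a median of 1.06. In either direction, 14.1% of all genes were called on day 4, and 9.04% between days 7 and 4. Tested directly, 21 were lower on day 7 than on day 4 and none was higher, also at an unadjusted p under 0.05, with a median difference of -0.86; IFIT1 differed by -3.36 ± 0.26 (adjusted p = 7.63e-14) and OASL by -4.13 ± 0.33 (adjusted p = 2.39e-13). Of 11 interferon ligands and receptors, the double-stranded RNA receptor gene TLR3 alone was called by edgeR (adjusted p = 0.0425). It went from 0.111 and 0.101 CPM to 0.989 and 0.939 CPM, and its call was lost without any 1 library. DESeq2 gave TLR3 no adjusted p. Its untreated levels rest on very few counts, so within this comparison it could reach the low-count filter only through the MS023 libraries. Of 17 class I antigen presentation genes 1 was higher, PSMB8, and 1 lower, PSME1, near the 7.13% and 6.52% of all genes, and both calls were lost without 3 of the 4 libraries.

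Genes of the hepatic acute phase and complement were higher in 6 of 23 cases, against 7.13% of all genes. FGA, FGG, FGL1, CP and IL6R were among these 6. None was lower (1 at an unadjusted p under 0.05, none with DESeq2), and the median was 0.65. FGL1, a fibrinogen-like secreted protein, went from 0.666 and 0.402 CPM to 2.76 and 3.39 CPM (2.51 ± 0.42, adjusted p = 1.84e-05); 3 to 4 members were higher without 1 library. Of 24 lineage factors and lung markers 8 were higher and 2 lower, against 7.13% and 6.52% of all genes, with a median of 0.26. Of the 14 transcription factor genes 6 rose. FOXA3, a pioneer factor of endodermal tissues, went from 0.555 and 1.31 CPM to 4.17 and 3.83 CPM (2.07 ± 0.38, adjusted p = 8.68e-05). Its log2 fold change lay between 1.605 and 2.823 with 1 library left out. MUC5B, the gel-forming mucin next to MUC5AC on chromosome 11, rose from 15.4 and 13.0 CPM to 30.0 and 36.6 CPM (1.23 ± 0.19, adjusted p = 5.31e-05), opposite to the lower values of MUC5AC. On day 4 the levels were 103.0 and 91.3 CPM for MUC5B and 25.2 and 30.8 CPM for MUC5AC, so both were higher than on day 7, the day 7 level of MUC5B standing at -1.55 ± 0.165 and that of MUC5AC at -3.30 ± 0.545 from day 4 on the log2 scale (adjusted p = 4.78e-07 and 0.00111). CAV1, the caveolin of type I alveolar cells, was at 29.7 and 27.6 CPM and at 21.4 and 21.2 CPM (-0.43 ± 0.13, adjusted p = 0.0206), a call lost without any 1 library.

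Of 24 genes of the actin cytoskeleton and of Hippo signalling, 3 were higher (CTGF, AJUBA, CYR61), against 7.13% of all genes, and 8 lower, against 6.52%, among them MYH9, TPM2, TPM1, VCL, TPM3 and TAGLN2, with a median of -0.15 that turned to 0.05 under scaling to nuclear counts. CTGF, a matricellular target of YAP, rose from 7.55 and 11.4 CPM to 23.4 and 24.0 CPM (1.32 ± 0.15, adjusted p = 4.23e-09). TPM2, a tropomyosin, fell from 40.8 and 34.1 CPM to 15.8 and 16.2 CPM (-1.22 ± 0.16, adjusted p = 3.45e-06), and TPM1 from 123 and 108 CPM to 63.4 and 62.8 CPM (-0.87 ± 0.12, adjusted p = 6.15e-07). Of 22 epithelial-mesenchymal and matrix genes 4 were higher and 4 lower. TGFBI, a matrix protein induced by TGF-beta, fell from 80.9 and 68.9 CPM to 32.6 and 31.2 CPM (-1.23 ± 0.16, adjusted p = 3.75e-06), and COL5A1, a fibrillar collagen, from 27.0 and 22.5 CPM to 13.0 and 12.4 CPM (-0.96 ± 0.14, adjusted p = 1.59e-06). KRT19 (0.61 ± 0.16, adjusted p = 0.00692) and SNAI2 (2.67 ± 0.76, adjusted p = 0.0124) were higher, but KRT19 lost its call without MS023 replicate 1 or untreated replicate 2, and SNAI2 without MS023 replicate 2 or either untreated library.

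In the NF-kB pathway, 5 of 11 subunit and inhibitor genes were lower, against 6.52% of all genes, with a median of -0.37. Of 14 cytokine and adhesion genes 4 were higher, against 7.13% of all genes, and 1 lower. RELB, a subunit of the non-canonical pathway, went from 12.2 and 10.5 CPM to 5.09 and 3.97 CPM (-1.32 ± 0.22, adjusted p = 1.8e-05), and its partner NFKB2 from 39.3 and 36.3 CPM to 18.9 and 18.5 CPM (-1.02 ± 0.13, adjusted p = 6.02e-08). CCL2, a monocyte chemokine, rose from 5.99 and 6.53 CPM to 16.5 and 12.4 CPM (1.21 ± 0.20, adjusted p = 1.93e-05). CXCL3, a neutrophil chemokine, was at 8.32 and 10.1 CPM and at 17.1 and 14.6 CPM (0.78 ± 0.17, adjusted p = 0.00102; 0.0507 without untreated replicate 1). Of 18 immediate early and ERK feedback genes 6 were higher (EGR1, FOSB, JUND, FOS, SPRY4, JUN) and 3 lower. DESeq2 called 4 higher, JUN not among them, and 3 lower. FOS rose from 24.6 and 23.1 CPM to 44.4 and 44.8 CPM (0.90 ± 0.12, adjusted p = 4.61e-07) and JUND from 48.2 and 48.4 CPM to 90.1 and 92.6 CPM (0.92 ± 0.12, adjusted p = 2.21e-07). FOSL1, another AP-1 subunit, fell from 27.5 and 26.2 CPM to 12.1 and 14.4 CPM (-1.02 ± 0.14, adjusted p = 7.13e-07), and DUSP5, a phosphatase that limits ERK, from 40.7 and 44.3 CPM to 22.9 and 26.3 CPM (-0.79 ± 0.15, adjusted p = 0.000417). Of 20 hypoxia and glycolysis genes 3 were higher and 6 lower, with a median of -0.31. ADM, the peptide hormone adrenomedullin, rose from 92.5 and 110.4 CPM to 242 and 256 CPM (1.30 ± 0.11, adjusted p = 4.04e-12), while LDHA, lactate dehydrogenase, fell from 91.5 and 85.7 CPM to 52.6 and 47.1 CPM (-0.83 ± 0.11, adjusted p = 1.29e-07).

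Several lists showed little beside the 7.13% higher and 6.52% lower of all genes. Of 56 replication-dependent histone genes 3 were higher and 6 lower with a median of -0.05, and their near-identical sequences make single genes uncertain. Of 32 sterol and fatty acid synthesis genes 2 were higher, of 13 snoRNA hosts 1 was lower, and of 27 pausing and elongation genes 2 were higher and 2 lower. The lower pair were PAF1 (44.5 and 45.9 CPM, then 27.8 and 31.6 CPM; -0.61 ± 0.11, adjusted p = 0.000127) and POLR2A, the largest subunit of RNA polymerase II (105 and 103 CPM, then 72.1 and 77.2 CPM; -0.48 ± 0.10, adjusted p = 0.000715). Mitochondrially encoded genes were lower in 12 of 13 cases with a median of -1.23 and none higher by either tool, and 6 to 10 were lower without 1 library. MT-CYB, cytochrome b, went from 91246 and 68756 CPM to 24588 and 24428 CPM (-1.71 ± 0.28, adjusted p = 1.15e-05), and MT-ND3, a complex I subunit, from 12803 and 9384 CPM to 4234 and 4099 CPM (-1.41 ± 0.22, adjusted p = 9.01e-06). These genes are part of the mitochondrial share of the library, which counts all mitochondrial genes. That share was 73.4% to 76.0% in untreated cells and 58.7% to 59.6% after MS023. Its part in other differences was not tested beyond the fit without mitochondrial and ribosomal RNA genes, which called 1622 genes higher and 1475 lower.

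Shorter exposures used the same untreated libraries, so their values stand side by side without a test of likeness. Day 2 had 2376 genes called (10.4%) and day 4 had 3242 (14.1%). Tested directly, days 7 and 4 differed in 2071 genes (9.04%), 980 higher and 1091 lower on day 7; without 1 library these counts were 320 to 488 and 385 to 610.

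TGM2 stood at 30.0 and 31.9 CPM on day 2 and 25.4 and 25.9 CPM on day 4, before the 7.21 and 7.15 CPM of day 7 (7 against 4 days -1.83 ± 0.13, adjusted p = 1.43e-14). CCL2 turned from 3.61 and 3.59 CPM on day 2 and 2.41 and 2.06 CPM on day 4, below untreated, to 16.5 and 12.4 CPM (2.69 ± 0.22, adjusted p = 6.44e-13). JUN likewise went from 20.4 and 19.7 CPM on day 4, under the untreated 49.8 and 57.2 CPM, to 64.4 and 75.0 CPM (1.80 ± 0.12, adjusted p = 5.52e-15). Against untreated, JUN on day 7 stood at 0.38 on the log2 scale (edgeR adjusted p = 0.0233, but 0.0609 with DESeq2). Leaving out 1 library put that value between 0.27 and 0.48, and the call was lost without MS023 replicate 2 or untreated replicate 1. NUPR1 was at 17.6 and 18.5 CPM on day 2, 24.2 and 22.7 CPM on day 4 and 38.5 and 44.1 CPM on day 7, where it differed from day 4 by 0.81 ± 0.14 (adjusted p = 0.000105). FGA was highest on day 4, at 33.5 and 38.0 CPM, and day 7 differed from it by -1.20 on the log2 scale (SE 0.137, adjusted p = 1.31e-08). Of p53 targets, 8 of 29 were higher on day 7 than on day 4, and of 56 histone genes 25 were lower (9.04% of all genes differed, in either direction). Replication genes were called lower than untreated in 8 cases on day 2, 18 on day 4 and 25 on day 7, but 2 of 51 were lower and 1 higher on day 7 than on day 4. For mitosis genes the counts were 4, 9 and 17, and 5 were lower on day 7 than on day 4.

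**Figure D4:**
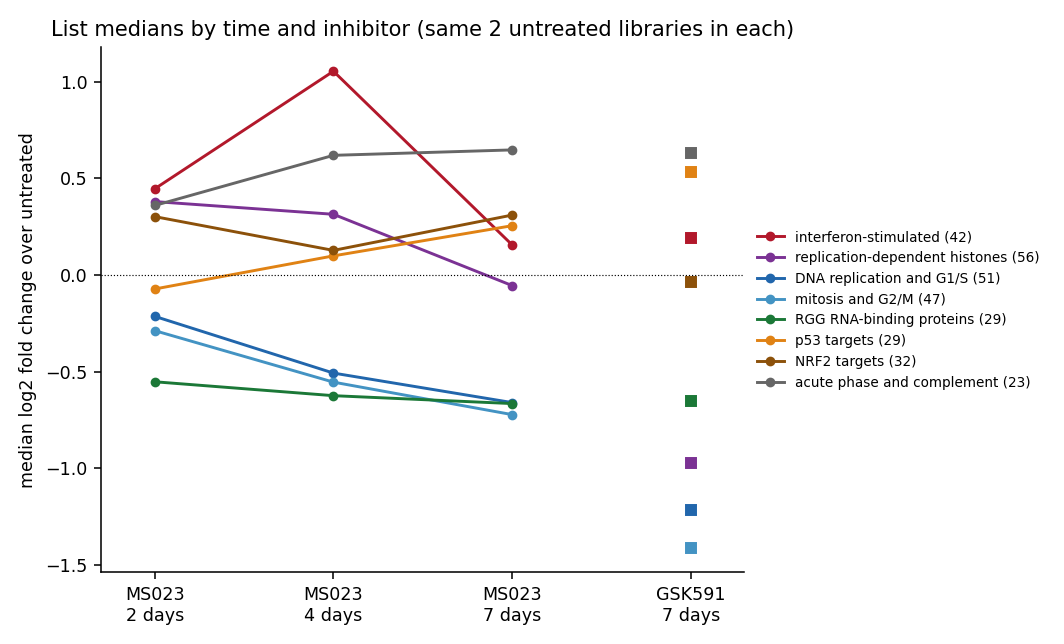
Median log2 fold change over untreated (y axis) of 8 gene lists after MS023 for 2, 4 and 7 days (lines) and after GSK591 for 7 days (squares); all points share the same 2 untreated libraries. Interferon-stimulated genes peak at 1.06 on day 4 and stand at 0.16 on day 7, while replication genes go to -0.66 and, with GSK591, to -1.22.

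The PRMT5 inhibitor given for the same 7 days came with differences in 3025 genes (13.2%) against the same untreated libraries. MS023 and GSK591 at 1 µM differed from each other in 2148 genes (9.37%), 1023 higher and 1125 lower with MS023, or 448 to 594 and 561 to 631 without 1 library. Replication genes were lower with GSK591 in 40 of 51 cases with a median of -1.22, and 14 were higher with MS023 than with GSK591. MCM5 was at 5.92 and 7.75 CPM with GSK591, below the 12.4 and 11.9 CPM with MS023 (difference 0.84 ± 0.17, adjusted p = 0.000427). Mitosis genes were lower with GSK591 in 37 of 47 cases and higher in 1; with the inhibitors compared, 13 were higher with MS023 and 1, CCNB2, was lower. CCNB2 was at 23.3 and 27.3 CPM with GSK591, against 26.9 and 27.9 CPM in untreated cells (log2 -0.12, adjusted p = 0.658), and at 13.1 CPM with MS023 (difference -0.95 ± 0.15, adjusted p = 7.59e-06). BIRC5 went the other way, at 8.12 and 6.15 CPM with GSK591 against 11.0 and 11.8 CPM with MS023 (0.67 ± 0.17, adjusted p = 0.00615). Of histone genes 51 of 56 were lower with GSK591, with a median of -0.97, and 48 were higher with MS023 than with GSK591. Of 13 mitochondrially encoded genes none was called with GSK591, by edgeR (none at an unadjusted p under 0.05) or by DESeq2, and 12 were lower with MS023 than with GSK591, which had a mitochondrial share of 73.7% and 78.7%.

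RNA-binding protein genes were lower in 19 of 29 cases with MS023 and 20 with GSK591, with medians of -0.67 and -0.65. Between the inhibitors 1 of 29 differed, against 9.37% of all genes in either direction. Of p53 targets 15 of 29 were higher with GSK591, with a median of 0.53, and 7 were lower with MS023 than with GSK591, MDM2 among them at 112 and 147 CPM with GSK591 (difference -0.53 ± 0.11, adjusted p = 0.000458). Genes of the NRF2 list were higher with MS023 than with GSK591 in 8 of 32 cases. Actin and Hippo genes were lower with MS023 than with GSK591 in 12 of 24 cases; TPM1 was at 136 and 161 CPM with GSK591 (difference -1.23 ± 0.12, adjusted p = 1.56e-10). The largest differences on the higher side were C1orf61 at 2.30 ± 0.22, the keratin KRT4 at 2.16 ± 0.335, the BMP antagonist GREM1 at 2.07 ± 0.19, the receptor LILRB3 at 1.94 ± 0.19 and the inhibin beta B gene INHBB at 1.82 ± 0.16. INHBB had 7.66 and 7.14 CPM in untreated cells, 22.0 and 24.1 CPM with MS023 and 6.85 and 6.15 CPM with GSK591. GREM1 had 11.8 and 11.4, 29.7 and 22.7, and 6.15 and 6.28 CPM, so the inhibitors stood on opposite sides of untreated. On the lower side were PSG4 at -2.97 ± 0.33, the xanthine dehydrogenase gene XDH at -2.51 ± 0.32, the stanniocalcin gene STC1 at -2.47 ± 0.25, the forkhead gene FOXQ1 at -2.44 ± 0.20 and the carboxypeptidase M gene (-2.19 ± 0.15). FOXQ1 had 7.32 and 6.13 CPM in untreated cells, 3.46 and 3.25 CPM with MS023 and 15.1 and 21.5 CPM with GSK591.

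A 7-day MS023 exposure was also compared with control cells in 8 libraries that the comparison above does not use. Both the exposed and the control cells received 100 nM Dex for 15 min or 3 h. Each Dex time had 2 exposed and 2 control libraries. With 15 min of Dex 3499 genes differed (15.3%), and of the 1634 genes higher without Dex 1592 (97.4%) were on the same side and 917 were called higher, which is 56.1% of the 1634 and 53.5% of those higher under Dex. Of the 1494 lower genes 1466 (98.1%) were on the same side and 901 were called lower (60.3% and 50.5%). None was called in opposite directions. With 3 h of Dex 2644 genes differed (11.5%), 1491 of the 1634 (91.2%) and 1375 of the 1494 (92.0%) were on the same side, and 607 and 617 were called in the same direction. These are 37.1% and 41.3% of the genes called without Dex and 48.8% and 44.1% of those called under Dex. Of the 1634 higher genes 6 were called lower with 3 h of Dex. Called in the same direction in all 3 settings were 967 genes, 475 higher and 492 lower. Over 11104 genes averaging 5 CPM or more, the log2 fold changes without Dex correlated with those under 15 min of Dex with r = 0.817 and under 3 h with r = 0.645, as a description across genes, which are not independent replicates. No library is shared between the 3 contrasts.

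NUPR1 was at 4.53 and 5.19 CPM with 15 min of Dex alone and 31.9 and 39.2 CPM after MS023, and at 10.8 and 7.06 CPM and 70.3 and 75.0 CPM with 3 h, log2 fold changes of 2.87 and 3.01. TGM2 was at 35.3 and 35.2 CPM and 9.45 and 7.22 CPM, and at 56.2 and 47.4 CPM and 13.1 and 13.0 CPM (-2.07 and -1.99). AXIN2, EBF4, TPD52L1 and SHH stood at 2.31, 2.49, 1.82 and 1.84 with 15 min and at 2.62, 2.20, 2.26 and 1.97 with 3 h. Of replication genes 30 of 51 were lower with 15 min and 20 with 3 h, and of mitosis genes 23 and 15 of 47. In either direction, 15.3% and 11.5% of all genes were called. RNA-binding protein genes were lower in 16 of 29 cases with 15 min but in 4 with 3 h, with medians of -0.42 and -0.28. Of p53 targets 12 and 8 of 29 were higher, and of acute phase genes 6 and 6 of 23. Histone genes were lower in 10 of 56 cases with 15 min and in 40 with 3 h. CTGF was at 0.35 and 0.33 (adjusted p = 0.0714 and 0.165), and its levels with Dex alone were already 18.6 and 18.5 CPM at 15 min. NFKB2 stood at -0.85 (adjusted p = 9.07e-06) with 15 min and at 0.18 (adjusted p = 0.51) with 3 h. Whether such effects differ between the Dex settings was not tested.

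**Figure D5:**
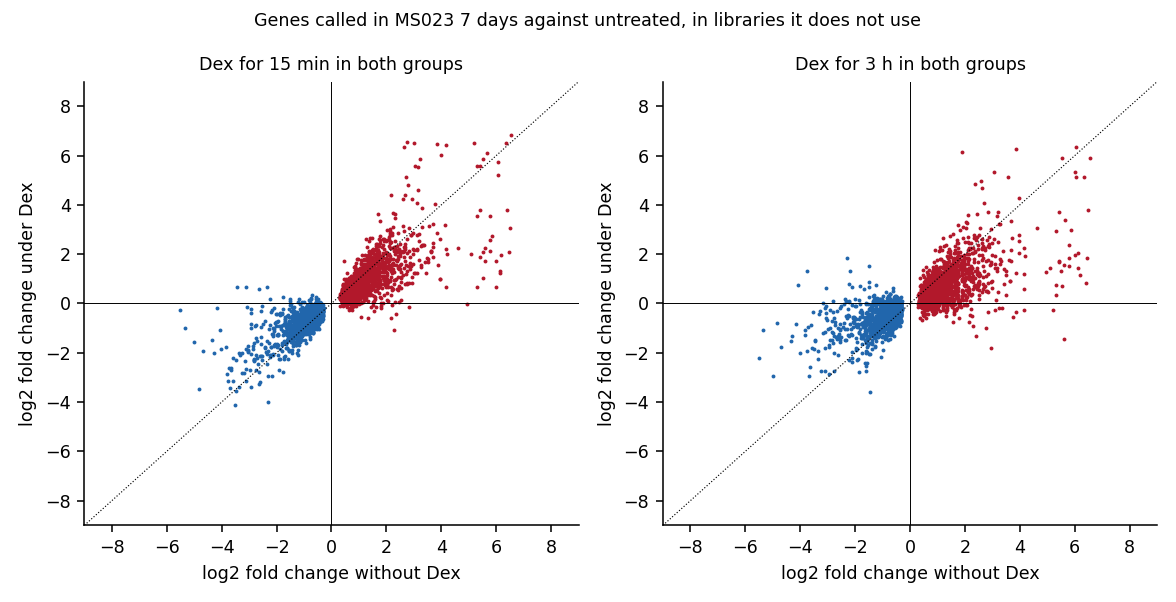
Log2 fold change of MS023 7 days under Dex (y axes, 15 min left and 3 h right) against the same without Dex (x axes) for the 3128 genes called without Dex, red for higher and blue for lower, with the line of equality dotted. Of the 1634 red genes 97.4% lie above 0 on the left and 91.2% on the right.

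The authors' deposited table of the same comparison lists 28873 genes, of which 17677 carry an adjusted p and 3882 (22%) have one under 0.05, 1703 higher and 2179 lower. Of 15360 genes that could be matched by name and were tested in both, 2354 were called from the counts and 3454 in the authors' deposited table. Both called 1351, which is 57.4% of the first and 39.1% of the second, and 1330 of these had the same direction. In the authors' deposited table, 42 of 46 matched replication genes, 35 of 40 matched mitosis genes and 18 of 25 matched RNA-binding protein genes were lower, and 15 of 25 p53 targets were higher and 1 lower. The counts and settings behind the authors' deposited table are not given in the sources used here.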

How the data were processed

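Nascent RNA was measured by precision run-on sequencing in 30 A549 libraries of 15 groups, 2 libraries each. The deposited gene counts were made with featureCounts 2.0.1 of Subread on hg38, per the submitters' processing notes; feature type, strand and multi-mapping settings are not given in the sources used here. The authors' deposited table of the comparison holds mean normalized counts (a signal), log2 fold changes and p-values with adjusted p-values, made with DESeq2 per the file headers.

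Counts were tested with edgeR 4.0.16 in R 4.3.3 (quasi-likelihood test, TMM scaling, all 15 groups in 1 fit with 15 residual degrees of freedom). Genes passed a filter of 10 counts, scaled to library size, and 15 in total; 22919 of 58780 were tested, with Benjamini-Hochberg adjustment over them and a threshold of 0.05. CPM are counts scaled to the TMM-adjusted library size. Standard errors are the log2 fold change divided by the square root of the F statistic. DESeq2 1.42.0 was an alternative, beside other scalings and filters, only the groups compared, the replicate number as a block and each library left out. The fit was also run on counts simulated from its own estimates, with far fewer genes changed than were called here. That run does not test the calls reported here. Names follow GENCODE 29 (all 58780 identifiers matched).

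Named genes were the 10 largest rises and falls among called coding or long non-coding genes averaging 5 CPM or more and with groups that do not overlap, 3 pseudogenes in each direction, the Type I PRMT genes, PRMT5 and NR3C1, up to 2 called genes in each direction of 30 lists by adjusted p, and the 5 largest differences in each direction between days 7 and 4 and between the inhibitors. MCM2, TAF15, EWSR1 and the genes listed without values were added after their values were seen. The comparison, the lists and their members were chosen with earlier results of these data known. 1 list symbol had no matching gene. Some genes that the rule names are not reported here.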

Additional observations from a re-analysis of the deposited data

Results flagged for a closer look

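Named genes were singled out where the effect of 7 days of MS023 differed from that of another exposure in a direct edgeR test (adjusted p under 0.05). Values are log2 differences, with no explanation weighed. The genes with the largest differences in each test were named for that reason, so their size is a description.

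Day 7 lay above day 4 of MS023 for NUPR1 0.81, TPD52L1 0.96, GADD45G 0.89, SHH 0.59, MST1L 0.80, CCL2 2.69, HSPB8 2.05, AC103718.1 1.86, ANKRD1 1.80 and JUN 1.80. It lay below day 4 for FGA -1.20, EBF4 -0.54, MUC5AC -3.31, TGM2 -1.83, INCENP -0.87, OASL -4.13, IFIT1 -3.36, AC139749.1 -2.15 and OAS1 -2.07.

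MS023 lay above GSK591 at 7 days for NUPR1 1.56, FGA 1.26, AXIN2 1.37, TPD52L1 0.89, EBF4 1.20, GADD45G 0.70, SHH 0.88, NPHS1 0.72, AC009237.3 0.70, AL121949.1 0.84, C1orf61 2.30, KRT4 2.16, GREM1 2.07, LILRB3 1.94 and INHBB 1.82. It lay below GSK591 for ANTXR1 -1.64, TGM2 -1.58, SFMBT2 -0.92, FLJ16779 -1.03, PSG4 -2.97, XDH -2.51, STC1 -2.47, FOXQ1 -2.44 and the carboxypeptidase M gene -2.19.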

How the results depend on the processing

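Scaling mattered most. Scaled to all counts, genes higher and lower after MS023 for 7 days numbered 16086 and 78, for 2 days 9153 and 74, for 4 days 11161 and 113, under Dex for 15 min 6464 and 103 and under Dex for 3 h 13060 and 48; with GSK591 they were 568 and 573, for MS023 against GSK591 15901 and 97, and 83 were lower on day 7 than on day 4. Scaled to nuclear counts, they were 3096 and 736 on day 7, 2989 and 737 on day 4 and 2541 and 517 under 3 h of Dex, with 922 lower with GSK591 and 902 under 15 min of Dex. Of calls on day 7, 52.2% were higher in the main analysis, 99.5% scaled to all counts and 80.8% scaled to nuclear counts.

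Relative to a median gene at 1.02, scaling to all counts turned positive FOXQ1 (0.022), PRMT1 (0.69), PRMT3 (0.58), HNRNPA1 (0.48), SF3A2 (0.037), SNRNP70 (0.46), MCM4 (0.079), FANCA (0.36), E2F7 (0.042), TP53I3 (0.67), SLC7A1 (0.55), DDIT3 (0.27), PSME1 (0.53), CAV1 (0.59), RPL13A (0.42), RPS15A (0.51), SNHG17 (0.45), HIST1H4I (0.26), HIST1H4J (0.49), PAF1 (0.41), POLR2A (0.54), ZNF326 (0.23), ZNF628 (0.42), TPM1 (0.15), COL5A1 (0.065), NFKB2 (0.0040), DUSP5 (0.22), LDHA (0.19) and ALDOA (0.45). List medians that turned were arginine methylation 0.93, RNA-binding proteins 0.36, splicing 0.73, replication 0.35, mitosis 0.29, recombination 0.43, unfolded protein response 0.88, ribosome biogenesis 0.67, ribosomal proteins 0.84, snoRNA hosts 0.85, pausing 0.77, actin 0.87, NF-kB 0.96, hypoxia 0.71, G1 control 0.99, integrated stress response 1.01, histones 0.95 and epithelial-mesenchymal genes 0.97. Scaling to nuclear counts turned arginine methylation to 0.12, unfolded protein response 0.061, ribosomal proteins 0.032, snoRNA hosts 0.034, actin 0.051, NF-kB 0.15, G1 control 0.17, integrated stress response 0.19, histones 0.15 and epithelial-mesenchymal genes 0.16. Leaving out a library put NF-kB between -0.11 (untreated replicate 1) and 0.023 (untreated replicate 2), and turned interferon ligands to -0.049 (untreated replicate 2) and sterol synthesis to -0.016 (MS023 replicate 1), -0.015 (untreated replicate 1) and -0.0036 (untreated replicate 2). It also turned epithelial-mesenchymal genes to 0.076 (MS023 replicate 1), histones to 0.026 and G1 control to 0.016 (both untreated replicate 2), and the integrated stress response to 0.027 to 0.062 with any 1 library left out, as did DESeq2 (0.0083) and no filter (0.020). The cause was not tested.

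DESeq2 called 922 higher and 891 lower on day 7, 802 and 542 on day 2, 1008 and 861 on day 4, 440 and 499 for day 7 against 4, 922 and 912 with GSK591, 478 and 660 between inhibitors, 881 and 914 under 15 min and 591 and 773 under 3 h of Dex. Fits of only the groups compared gave 1965 lower on day 2, 2296 lower on day 4, 1675 higher and 1937 lower for day 7 against 4, and 1712 lower between inhibitors. Without 1 library, higher and lower calls ranged over 785 to 1002 and 781 to 837 on day 7, 582 to 793 and 395 to 503 on day 2, 829 to 1132 and 696 to 884 on day 4, 320 to 488 and 385 to 610 for day 7 against 4, 781 to 897 and 809 to 999 with GSK591, 448 to 594 and 561 to 631 between inhibitors, 686 to 1242 and 762 to 1188 under 15 min and 556 to 893 and 701 to 858 under 3 h of Dex. The group left with 1 library was then assumed to vary like the others.

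The labels do not say whether replicate numbers pair the libraries. Replicate differences of the MS023 and untreated groups correlated at -0.125 over 11104 genes. Over 105 group pairs this correlation ran from -0.451 to 0.488 with a median of 0.02, and 22 exceeded 0.1. With the replicate number as a block, 1676 genes were higher and 1577 lower on day 7. At 2491151 to 3401722 nuclear counts a library, genes of few counts, such as PRMT6 and PRMT8, could not be tested.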
